A study of Arabidopsis thaliana with 6 samples.

Results

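The 60 loci described here belong to the class III peroxidase family of Arabidopsis thaliana and were taken by a fixed list of locus names. The other 13 of the 73 loci listed for the family, which hold the root hair peroxidases and a few others, served for comparison only. A locus was read where a probe set, the group of short probes that measures 1 transcript on the Affymetrix ATH1 array, was annotated with that locus alone. This held for 42 of the 60. Another 7 were listed only on probe sets shared with a second gene, and 11 were not in the annotation table. Whole seedlings of the Columbia background had grown for 10 days on filter paper wetted with 100 µM scutellarin in 1% DMSO, against mock seedlings on 1% DMSO alone. Both groups had first spent 2 days in the dark at 4 °C, and their growth chamber was at 25 °C and lit for 12 h a day. Each group had 3 arrays, each from a pool of whole seedlings of an independent experiment per the series' design text, and all 6 arrays shared the solvent. Scutellarin is a flavone glucuronide of skullcaps and other plants, and the comparison addresses which peroxidase transcripts differ in seedlings exposed to it from sowing.

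Class III peroxidases are haem enzymes that plant cells secrete into the wall. With hydrogen peroxide they oxidise phenolic compounds, which joins monolignols into lignin, links ferulate and the tyrosines of extensins, and so stiffens the wall. The same enzymes can also produce reactive oxygen species that cut wall polysaccharides or act in defence. The family is large in flowering plants and many of its genes stand side by side as tandem copies. For most of the loci below no individual function is annotated in the tables used here, so they go by locus, with a further name for some.

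The name of the set, peroxidases outside root hairs, is not fully borne out by the gene table. AT5G22410 is named there RHS18 and AT5G67400 RHS19, for root hair specific. Both were among the 11 loci not in the annotation table, with AT1G05240, AT1G05250 (PRX2), RCI3 (AT1G05260), PER4 (AT1G14540), AT3G32980, PRXCA (AT3G49110), PRXCB (AT3G49120), PA2 (AT5G06720) and PER64 (AT5G42180). PER64 is known for lignin of the Casparian strip and PRXCA and PRXCB for the oxidative burst in the apoplast. None of these 11 was analysed here.

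Values are MAS5 intensities, the manufacturer's summary of a probe set on a linear scale with a floor of 1, and array medians lay between 144.8 and 162.3. Intensities of different probe sets cannot be set against each other, so levels are compared within a gene. Sums over a marker list are compared only between arrays, and probe sets with high intensities weigh most in them. Because RNA came from whole seedlings, a change in the share of a cell type cannot be told apart from a change of RNA per cell. Tissue markers moved with treatment. Over all kept probe sets, 10.3% rose and 9.11% fell at a limma adjusted p under 0.05. Both kept root hair markers of a list of 13, EXPA7 (AT1G12560) and EXPA18 (AT1G62980), rose, and their summed intensity was 619.5 to 864.2 on scutellarin arrays and 16.5 to 37.9 on mock arrays. Both passed the filter on low values through their scutellarin arrays alone, so that both kept markers rose was partly fixed by the filter. Of 4 kept root markers outside root hairs, of 11 listed, 2 rose and 2 fell, with summed intensities of 12971 to 15580 on scutellarin arrays and 8402 to 9807 on mock arrays. That sum is mostly PYK10 (AT3G09260), at 11460.5 ± 1573 with scutellarin and 5757 ± 357 in mock, and the median log2 change of the 4 was -0.09. AT1G62500 and AT1G09750 were the 2 that fell. Of 6 kept leaf photosynthesis markers, of 16 listed, 5 fell, and their summed intensity was 74462 to 90549 on scutellarin arrays and 104430 to 114346 on mock arrays. Among those 5, PSBY (AT1G67740) and RCA (AT2G39730) were called in only 2 of the 6 fits that left out 1 array. Neither was called after quantile normalization, where PSBY was at -0.25 (adjusted p = 0.152) and RCA at -0.13 (0.405), in place of -0.45 and -0.38. Neither was called with no filter (0.0800 and 0.182) or with no variance trend (0.0891 and 0.131), and RCA was not called with median centring (0.0995). RCA and LHCB4.1 (AT5G01530) weigh most in the leaf sum, with mock means of 36724 and 22284, and LHCB4.1 is the kept leaf marker that did not pass. No kept marker was at the floor on any array, but EXPA7 came near it, at 1.81 on mock replicate 1. The part of tissue make-up in the results for the peroxidases was not tested.

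Scutellarin moved members of this family in both directions. Among the 31 members kept by the filter on low values, 10 rose, 5 fell and 16 did not pass, and the size of the changes ran from an 8.09-fold higher mean for AT5G64100 to a mean of 0.250 times that of mock for AT4G08780. The test was limma across all 15923 kept probe sets with Benjamini-Hochberg adjustment, and a gene was said to rise or fall at an adjusted p under 0.05. Changed members made up 48.4% of the 31, where 19.4% of all kept probe sets changed. The lists that set the other 13 family loci apart were chosen with earlier results of these data known, and the members' shares depend on that split. By direction, 32.3% of the members rose and 16.1% fell, against 10.3% and 9.11% of all probe sets. Of the members, 7 rose and 4 fell by at least 2-fold, as did 4.99% and 1.88% of all probe sets. The groups did not overlap for 17 of the 31 members, 11 of them higher and 6 lower with scutellarin, against 37.1% of all probe sets (18.6% higher and 18.6% lower). The median log2 change was 0.07 over the 31 members and -0.04 over all probe sets. The filter takes the mean of both groups: 3 members, AT1G14550, AT3G03670 and AT5G58390, passed it through their mock arrays alone, so these counts describe the kept members only. The number of fallen members was 3 without mock replicate 2 and 3 without mock replicate 3, and without mock replicate 2 the number of changed probe sets over the whole array was 2009 in place of 3094. Over all probe sets the number fallen was 802 without mock replicate 2, 934 without mock replicate 3 and 943 without scutellarin replicate 3, in place of 1450.

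**Figure D1:**
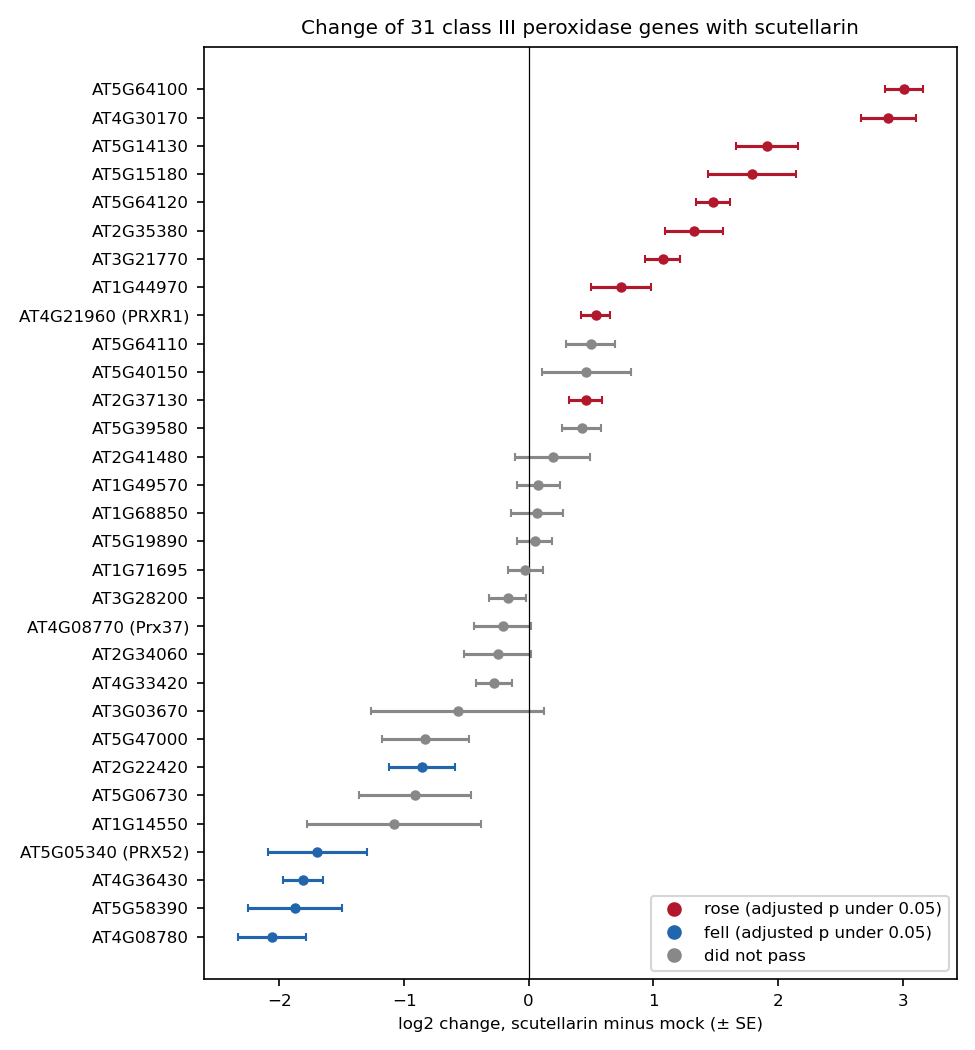
Log2 change of intensity, scutellarin minus mock, with its standard error, for the 31 kept class III peroxidase genes, sorted by size (3 arrays per group). Red points rose, blue points fell and grey points did not pass at an adjusted p under 0.05; the changes reach from -2.06 for AT4G08780 to 3.01 for AT5G64100, and grey points lie between -1.08 and 0.50.

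The largest rise was that of AT5G64100, which had intensities of 14654, 10185 and 13293 on scutellarin arrays, against 1814, 1382 and 1515 on mock arrays. Every scutellarin array lay far above every mock array, and the log2 change was 3.01 ± 0.15 (SE, n = 3 per group, limma adjusted p = 1.37e-07). AT4G30170 had 2176, 3320 and 2811 on scutellarin arrays and 262.5, 380.6 and 503.2 on mock arrays, a log2 change of 2.89 ± 0.22 (adjusted p = 4.41e-06). Mock arrays of AT4G30170 were spread more widely, in proportion, than its scutellarin arrays, and the lowest scutellarin array still lay well above the highest mock array.

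AT5G14130 had 262.1, 268.4 and 267.9 with scutellarin, against 68.5, 53.0 and 96.7 in mock, a log2 change of 1.91 ± 0.25 (adjusted p = 0.000270). Its 3 scutellarin arrays were nearly equal (266.1 ± 3.50, SD), while its mock arrays varied more (72.8 ± 22.2). AT5G15180 had 117.3, 230.7 and 258.0 with scutellarin and 77.0, 39.1 and 55.8 in mock, a log2 change of 1.79 ± 0.35 (adjusted p = 0.00387). Scutellarin replicate 1 of AT5G15180 stood low, not far above the highest mock array, and without that array the change was the largest of its leave-one-out values, 2.14.

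AT5G64120, also called PRX71 and known for restricting growth by wall stiffening, had 9338, 6824 and 9102 with scutellarin, against 3038, 2847 and 3087 in mock. Its log2 change was 1.48 ± 0.13 (adjusted p = 1.59e-05), and its 3 mock arrays agreed closely (2990 ± 127, SD). AT2G35380 had 254.7, 391.6 and 345.0 with scutellarin and 136.8, 100.4 and 159.9 in mock, a log2 change of 1.32 ± 0.23 (adjusted p = 0.00197). Replicate 1 was the lowest scutellarin array for AT4G30170, AT5G14130, AT5G15180 and AT2G35380, but the highest for AT5G64100 and PRX71, so no single array was high or low throughout.

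**Figure D2:**
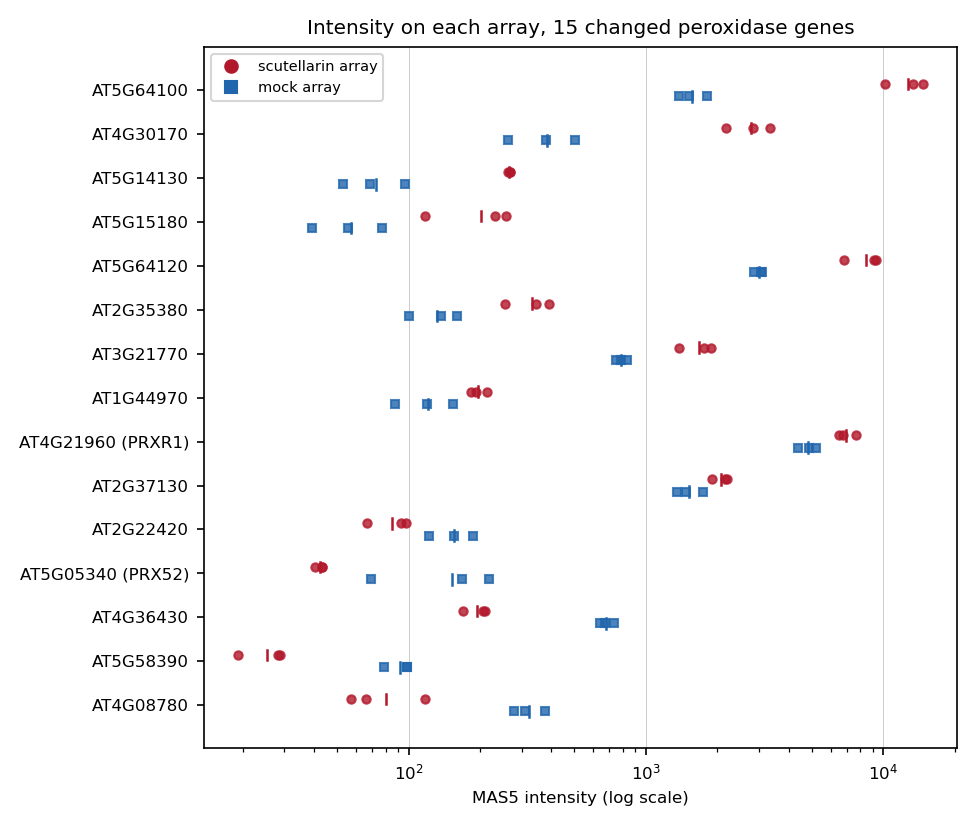
MAS5 intensity on each array (log axis) for the 15 changed class III peroxidase genes, scutellarin arrays as red circles above mock arrays as blue squares, with the mean of each group as a short line (n = 3 per group). Groups do not overlap for any of the 15; the upper 10 genes rose and the lower 5 fell.

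The other 4 risers changed less. AT3G21770 averaged 1671 ± 259 with scutellarin and 787.5 ± 43.2 in mock (SD), a log2 change of 1.07 ± 0.14 (adjusted p = 0.000330). PRXR1 (AT4G21960) averaged 6976 ± 633 with scutellarin and 4808 ± 402 in mock, a log2 change of 0.54 ± 0.12 (adjusted p = 0.00783, and 0.0518 with no variance trend). Both genes were called in every fit that left out 1 array. The remaining pair was less firm. AT1G44970 averaged 196.9 ± 15.2 with scutellarin and 120.5 ± 33.0 in mock, a log2 change of 0.74 ± 0.24 (adjusted p = 0.0479). This call was kept only without mock replicate 3, and the adjusted p was 0.0834 to 0.142 without any 1 of the other arrays. It was also lost after quantile normalization, median centring, with no filter and with no variance trend (adjusted p = 0.0608, 0.0599, 0.0910 and 0.0656). AT2G37130 averaged 2078 ± 165 with scutellarin and 1519 ± 194 in mock, a log2 change of 0.46 ± 0.13 (adjusted p = 0.0313). Leaving out mock replicate 1 or 2, or scutellarin replicate 2 or 3, ended this call (adjusted p = 0.0766 to 0.107), as did the fits with median centring (0.0653) and with no variance trend (0.0945).

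Among the fallers, AT4G08780 had intensities of 117.0, 57.1 and 66.4 on scutellarin arrays and 309.4, 374.1 and 277.1 on mock arrays. The log2 change was -2.06 ± 0.27 (adjusted p = 0.000317), and scutellarin replicate 1 was the array nearest to mock. AT5G58390 had 19.1, 28.2 and 28.6 with scutellarin, against 78.5, 98.5 and 98.5 in mock, a log2 change of -1.87 ± 0.38 (adjusted p = 0.00478). Its scutellarin intensities were under the filter value of 34.8, and with 32 added before log2 the change was -1.11. AT4G36430 had 209.6, 205.7 and 168.8 with scutellarin and 642.6, 672.1 and 731.3 in mock. This was the fall with the smallest error, a log2 change of -1.81 ± 0.16 (adjusted p = 1.31e-05).

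PRX52 (AT5G05340), known for a part in lignin formation of the stem, had 40.4, 43.1 and 43.2 with scutellarin, against 69.7, 167.9 and 218.0 in mock. The scutellarin arrays were nearly equal, while the mock arrays were widely spread and mock replicate 1 lay closest to the scutellarin arrays. The log2 change was -1.69 ± 0.40 (adjusted p = 0.0109), and the call was lost without mock replicate 2 or 3 (adjusted p = 0.0521 and 0.0584). AT2G22420 had 97.3, 92.8 and 66.5 with scutellarin and 122.2, 187.1 and 155.7 in mock, a log2 change of -0.86 ± 0.26 (adjusted p = 0.0398). This call ended when replicate 2 or 3 of either group was left out (adjusted p = 0.0514 to 0.157) and with no filter (0.0874). For AT4G08780, AT5G58390 and AT4G36430 the call held without any 1 array.

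Of the 16 kept members that did not pass, log2 changes lay between -1.08 and 0.50. A pair of them had groups that did not overlap. AT5G64110 had 200.9, 174.5 and 178.7 with scutellarin and 134.9, 124.5 and 132.5 in mock, a log2 change of 0.50 ± 0.20 (adjusted p = 0.0984). AT5G47000 had 35.0, 51.2 and 38.5 with scutellarin and 68.6, 64.4 and 87.6 in mock, a log2 change of -0.83 ± 0.35 (adjusted p = 0.120), and it passed with no variance trend (0.0374). AT5G39580 changed by 0.43 ± 0.16 (adjusted p = 0.0760) and passed without scutellarin replicate 2 (log2 change 0.58, adjusted p = 0.0191). The 3 lowest values had wide errors, with AT1G14550 at -1.08 ± 0.70, AT5G06730 at -0.91 ± 0.45 and AT5G47000 as above. AT3G03670 was at -0.57 ± 0.70, with scutellarin arrays at 33.3, 8.56 and 82.2, on both sides of the mock arrays at 40.5, 42.4 and 44.5. AT1G71695, AT5G19890, AT1G68850, AT1G49570, AT3G28200 and AT2G41480 (PRX25) lay between -0.17 and 0.19. AT4G33420, AT2G34060 and Prx37 (AT4G08770) lay between -0.28 and -0.21, and AT5G40150 at 0.46. A p that misses the threshold does not show that these genes stayed level.

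Tandem neighbours were compared because 22 of the 60 loci stand next to another member with no other protein-coding gene between, in 10 groups. The cluster of AT5G64100, AT5G64110 and PRX71 held the largest riser of the set, a gene that did not pass and another riser. In log2 terms AT5G64100 changed by 2.51 more than AT5G64110 and by 1.53 more than PRX71, and the change of AT5G64110 minus that of PRX71 was -0.98. In the pair on chromosome 4, AT4G08780 fell while its neighbour Prx37, known from overexpression to dwarf the plant, had 276.3, 455.5 and 344.6 with scutellarin and 313.9, 395.9 and 539.3 in mock (log2 change -0.21 ± 0.23, adjusted p = 0.564). The log2 change of Prx37 minus that of AT4G08780 was 1.85, Prx37 having moved less. In these 4 comparisons of neighbours the log2 difference between the genes separated the arrays of the groups fully (two-sided exact permutation p = 0.10, adjusted p = 0.10 over the 4, the smallest that 3 arrays against 3 allow). For the other clusters with a single-gene probe set, at most 1 gene was kept.

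The 7 members listed only on shared probe sets gave joint readings that cannot be split between the genes. The probe set shared by the neighbours AT2G18140 and AT2G18150 had intensities of 18.7, 22.6 and 31.8 on scutellarin arrays, against 174.6, 290.2 and 237.6 on mock arrays. This was a log2 change of -3.27 ± 0.33 (adjusted p = 3.85e-05), and -2.22 with 32 added before log2, since the scutellarin values lie near the low end of the scale. Those values were all under the filter value of 34.8, so this probe set was kept through its mock arrays alone. The probe set shared by AT2G38380 and AT2G38390 had 873.4, 661.3 and 592.0 with scutellarin and 393.9, 333.4 and 341.1 in mock, a log2 change of 0.98 ± 0.17 (adjusted p = 0.00201). Both calls held without any 1 array. The probe set of AT4G37520 and AT4G37530 overlapped between groups (log2 change 0.06 ± 0.17, adjusted p = 0.846), as did that of AT3G17070 and AT3G42570, the second of which is not a member (-0.52 ± 0.25, adjusted p = 0.180).

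**Figure D3:**
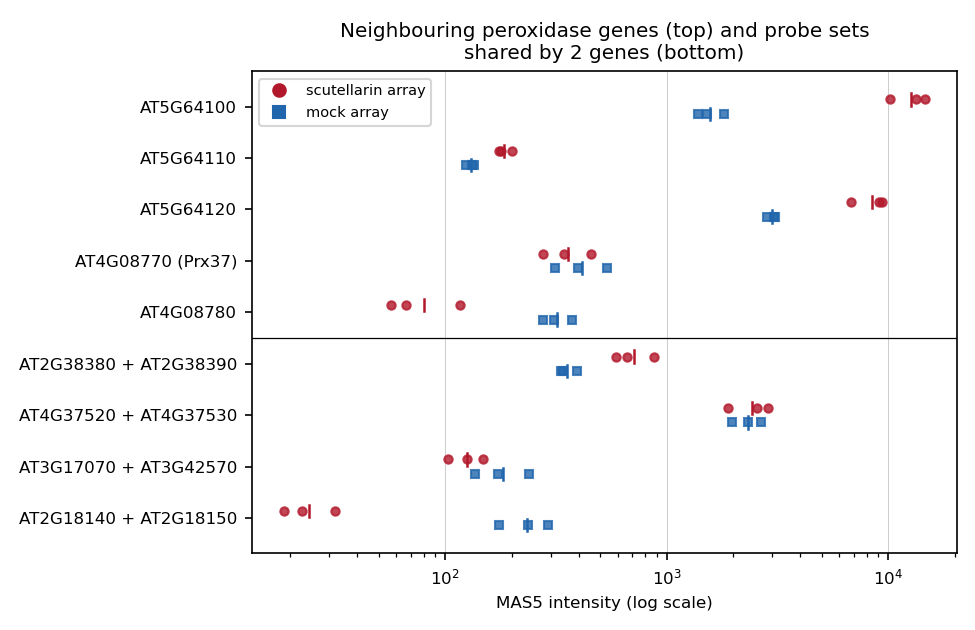
MAS5 intensity on each array (log axis) for neighbouring genes with their own probe sets (above the line) and for 4 probe sets shared by a pair of genes (below the line), scutellarin arrays as red circles above mock arrays as blue squares, with group means as short lines (n = 3 per group). AT5G64100 and PRX71 (AT5G64120) are separated widely and AT5G64110 narrowly; AT4G08780 is separated and Prx37 is not; of the shared probe sets, that of AT2G18140 and AT2G18150 lies lower with scutellarin and that of AT2G38380 and AT2G38390 higher.

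The filter left out 11 members with low intensities, and for 3 of them every scutellarin array lay above every mock array. AT5G24070 had 121.6, 140.9 and 147.4 with scutellarin, against 5.89, 14.2 and 5.88 in mock. AT2G39040 had 67.3, 50.6 and 50.3 with scutellarin and 6.09, 2.00 and 6.57 in mock. AT1G34510 had 22.0, 27.4 and 46.6 with scutellarin and 1.45, 2.78 and 2.18 in mock. In the fit with no filter these 3 passed, with log2 changes of 4.11 ± 0.56, 3.69 ± 0.75 and 3.88 ± 0.85 (adjusted p = 0.000777, 0.00841 and 0.0127). Over all 22746 probe sets that fit called 2780, of which 1570 rose. How often groups lay apart among all probe sets under the filter was not computed, so the 3 of 11 are only described. For AT5G24070, AT2G39040 and AT1G34510 the mock arrays were the low ones. Their mock values lie near the floor, where detection calls were not used, so the size of the folds is uncertain. The groups overlapped for the other 8, which were AT1G24110, AT2G24800, AT3G50990 (PER36), AT4G16270, AT4G17690, AT4G31760, AT5G19880 and AT5G58400, and none of these 8 passed with no filter. AT2G24800 came nearest, with 23.1, 22.1 and 28.1 in scutellarin seedlings and 1.66, 3.05 and 25.0 in mock seedlings, where 1 mock array lay among the scutellarin values (adjusted p = 0.191 with no filter). PER36, known for mucilage release from the seed coat, had 1.26, 3.01 and 1.32 with scutellarin and 16.4, 1.67 and 1.96 in mock.

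**Figure D4:**
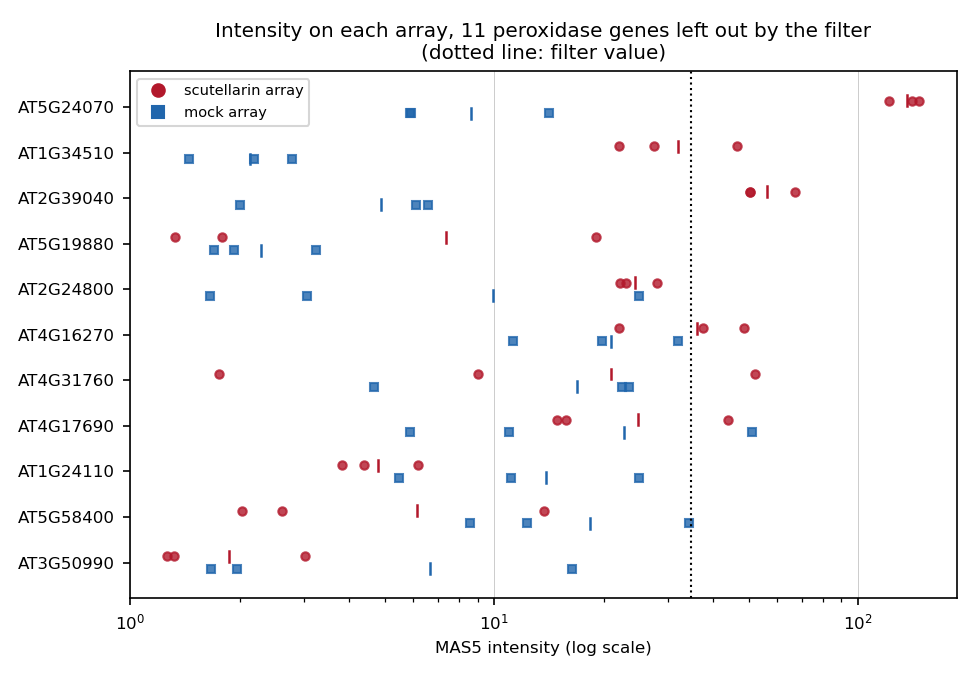
MAS5 intensity on each array (log axis) for the 11 class III peroxidase genes left out by the filter, scutellarin arrays as red circles above mock arrays as blue squares, with group means as short lines (n = 3 per group); the dotted line marks the filter value, 34.8, to which the geometric mean over all 6 arrays was compared. The groups are apart for AT5G24070, AT1G34510 and AT2G39040, all higher with scutellarin, and overlap for the other 8.

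Among the remaining 13 loci of the family, 10 were kept, of which 9 rose and 1 did not pass, with log2 changes from -0.27 to 7.66. Of all kept probe sets, 10.3% rose. The 3 other loci of these 13 were left out by the filter and their groups overlapped. Among them was AT1G77100, with 14.8 ± 12.7 on scutellarin arrays and 40.4 ± 17.2 on mock arrays (SD). AT1G30870, AT3G49960 and AT4G26010 passed the filter through their scutellarin arrays alone, whereas AT5G24070 and AT2G39040, members with low mock values too, did not pass it, so the counts of the 2 sets are not alike. AT4G33870, the kept gene that was not called, passed the filter through its mock arrays alone. The 13 also include genes set apart with earlier results of these data known, and the difference between the sets was not tested. The smallest of their 9 rises, 1.36 ± 0.23 for AT5G51890 and 1.46 ± 0.16 for AT5G66390, lay within the range of the members' rises. The largest value, 7.66 ± 0.66 for AT4G26010, is of uncertain size because its mock arrays read 4.85, 3.68 and 39.9, and it was 5.33 with 32 added before log2.

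Few partners of the enzymes were named in the annotation table, which did not list 8730 of the 22746 probe sets. A gene absent from it may still be measured by the array. Of all kept probe sets, 10.3% rose. Of 10 NADPH oxidase genes, which make the superoxide that yields hydrogen peroxide in the wall, 3 were kept and 1 rose. It was AT4G25090, with 84.3, 185.7 and 130.2 in scutellarin seedlings and 47.9, 32.9 and 12.5 in mock seedlings (log2 change 2.23 ± 0.50, adjusted p = 0.00822). AT4G25090 was kept through its scutellarin arrays, and with 32 added before log2 the change was 1.38. AT1G19230, also kept through its scutellarin arrays alone, did not pass, though its groups did not overlap (1.17 ± 0.47, adjusted p = 0.103). The remaining kept gene, AT4G11230, was at -0.03 ± 0.30 (adjusted p = 0.961). Of 18 genes of monolignol synthesis, which supplies a substrate, 2 were kept and 1 rose, HCT (AT5G48930) at 0.50 ± 0.16, a call that held in only 1 of the 6 fits without an array (adjusted p up to 0.121). The HCT call was also lost with median centring (0.0887), with no filter (0.0546) and with no variance trend (0.123). Of 15 Casparian strip and suberin genes 1 was kept, GSO1 (AT4G20140), a receptor kinase gene for the integrity of the Casparian strip. It rose by 0.86 ± 0.24 (adjusted p = 0.0238), a call that also held in only 1 of those 6 fits (adjusted p up to 0.0867) and was lost with no filter (0.0525). Of 26 genes for removal of peroxide and superoxide inside the cell, the 2 kept ones, SAPX (AT4G08390) and TAPX (AT1G77490), both ascorbate peroxidase genes of the chloroplast, did not pass, at 0.41 ± 0.17 and -0.23 ± 0.15. The 1 laccase gene of 17 with a single-gene probe set, LAC16 (AT5G58910), was left out by the filter.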

How the data were processed

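Transcripts were measured on 6 Affymetrix ATH1 arrays. The authors deposited MAS5 intensities on a linear scale, per the submitters' processing notes. No MAS5 version or setting is given in the sources used. The trimmed mean lay between 493.9 and 495.1 on every array, which shows scaling to 1 level before deposit. Of 22746 probe sets, 13513 named 1 gene, 503 named several and 8730 were not listed in the annotation table. Of those naming 1 gene, 13436 were matched to the RefSeq gene table of TAIR10.1. No coordinates are printed, since the build behind the array is unnamed. The lowest 30% of probe sets by mean log2 intensity were removed and 15923 stayed. The main test was limma 3.58.1 under R 4.3.3 (lmFit, then eBayes with a trended variance), two-sided, scutellarin over mock, and p-values were adjusted by Benjamini-Hochberg over all kept probe sets. On data simulated over 15923 probe sets with 200 changed, it recovered 61.0% of 2-fold and 91.0% of 4-fold changes, and 6.17% of calls were false. In a simulation with no change, 0 calls were made. Far more probe sets, 3094, were called in the real data, so these rates need not carry over to them. Precision is limited by having 3 arrays in each group. The members, gene lists and tests were chosen with earlier results of these data known. All members with a single-gene probe set were named, the 6 largest rises and 5 largest falls with values on each array. Members that did not pass got values where a neighbour was called or the groups did not overlap, and those described otherwise (AT5G39580, AT3G03670, AT2G24800, PER36) were chosen after their values were seen. Alternatives are given in the closing section. Figures were drawn with matplotlib 3.10.9.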

Additional observations from a re-analysis of the deposited data

How the results depend on the processing

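All 15 changed members kept their sign in every setting that tested them, and 11 of them were called without any 1 array. The number of changed members was 14 after quantile normalization, 13 after median centring, 16 with no filter, 15 with 32 added before log2, 13 with no variance trend, and 15 with a robust variance prior or without probe sets open to cross-hybridisation. Each member had 1 single-gene probe set at most, so counting every probe set changed nothing. With the lowest 50% left out, 10 members were called and 2 fell, since only 19 members were tested. Without 1 array, changed members numbered 11 to 14, risen 8 to 10 and fallen 3 to 5. Over all probe sets, changed numbered 2009 to 2833 and fallen 802 to 1437 without 1 array, and 862 fell with no variance trend. Arrays of the same replicate number showed no sign of deviating together (correlations of -0.04, -0.09 and 0.11). Between arrays of different number the correlations ran from -0.20 to 0.24. These correlations over all kept probe sets cannot exclude a pairing, and the labels do not say whether a number marks a shared experiment. With the replicate block 13 members were called (9 rose, 4 fell), and AT1G44970 and AT2G22420 were not (adjusted p = 0.0668 and 0.0556). HCT and RCA were not called with the block either (0.0537 and 0.0611). Over all probe sets the block called 2923 (1556 rose, 1367 fell). Intensities near the floor limit what can be said of the 11 members under the filter.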
